A study of Mus musculus with 29 samples.

Results

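The 9 genes described here encode cytokines of the IL-6 and IL-12 families and the related growth factor G-CSF. They were Il6, Osm, Lif, Csf3, Il12b, Il12a, Il23a, Il27 and Ebi3, taken by symbol from the 36982 genes of a count table of sorted mouse microglia. Of the 9, the 6 genes Il6, Osm, Csf3, Il12b, Il27 and Ebi3 passed the filter on low counts that left 16632 genes for testing, and Il12a, Il23a and Lif did not. Il12b and Csf3 passed it through libraries from mice given lipopolysaccharide (LPS), where they were high, so a count of called genes among those that passed is given below as a description only.

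Microglia, the resident macrophages of the brain, came from male C57BL/6J mice that were 10 weeks old at a first injection into the peritoneum and had a second one 5 weeks later. They received 1 mg/kg LPS of Escherichia coli O111:B4 (L) or phosphate-buffered saline (P) each time, and in some mice (B) the CSF1R inhibitor BLZ945, given by gavage for 5 days at 169 mg/kg per day from 1 week after the first injection, removed microglia, which then grew back. The cells were collected at 15 weeks of age, 3 h after that last injection, by sorting live CD11b-high, CD45-intermediate, Ly6C-negative events for polyadenylated RNA sequencing. The question was whether microglia that grew back retain innate immune memory of the first LPS. The groups were LBL (LPS, depletion, LPS; n = 5), PBL (saline, depletion, LPS; n = 5), PBP (saline, depletion, saline; n = 5), LL (LPS, vehicle, LPS; n = 5), PL (saline, vehicle, LPS; n = 4) and PP (saline, vehicle, saline; n = 5). The mice carried no engineered allele per the labels, and the undepleted groups were dosed with the cyclodextrin vehicle of the drug. How far the regrown cells descended from surviving microglia is not stated in the labels.

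Cytokines of the IL-6 family signal through receptors that share the chain Il6st, which passes the signal to JAK kinases and STAT3. Interleukin-6 uses Il6ra, leukaemia inhibitory factor uses Lifr and oncostatin M in mice uses mainly Osmr as the partner chain. G-CSF, the product of Csf3, acts on its own related receptor Csf3r and is best known for driving the production of neutrophils. The IL-12 family is made of paired subunits: the Il12b product pairs with that of Il12a to form IL-12 and with that of Il23a to form IL-23, while the products of Il27 and Ebi3 form IL-27. In macrophages many of these genes are induced through Toll-like receptor 4, the sensor of LPS, with NF-kB, C/EBP, AP-1 and IRF factors acting on their promoters.

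Total counts per library lay between 5670450 and 12671476. The 10 microglia markers checked were detected in every group and summed to 33981 to 73362 CPM per library, where CPM is a gene's count relative to the TMM-scaled total of its library. Sorting instrument and sorting day nearly coincided with the groups: LBL, PBL and LL were sorted on a MoFlo XDP, PL and PP on a MoFlo Astrios, and PBP on the Astrios except replicate 5. That PBP library, sorted on the same day as PBL, stood apart in RNA quality (score 7.4, against 8.8 to 9 in the other PBP libraries) and in its summed neuron markers, the highest of PBP. Nothing in the labels says that each sample is a separate mouse, so a p-value here reflects the spread among the samples of a group, which may be technical. In bulk RNA, fewer cells of a type and less RNA per cell cannot be told apart.

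RefSeq promoter windows (build GRCm38.p6, 250 bases before to 50 bases after the start site) were found for 5 of the 9 genes. The windows of Il6, Il12b and Ebi3 are shown because these genes were called together after LPS, and they are written from 5′ to 3′ in the sense of the gene. Capitals mark matches on either strand to NF-kB (GGGA, any 4 bases, then CC), C/EBP (TTGCNCAA) or AP-1 (TGANTCA). A further search for the interferon response element (GAAA, any 2 bases, then GAAA) found none in these 3 windows.
Il6 (chr5:30012864-30013163, plus strand): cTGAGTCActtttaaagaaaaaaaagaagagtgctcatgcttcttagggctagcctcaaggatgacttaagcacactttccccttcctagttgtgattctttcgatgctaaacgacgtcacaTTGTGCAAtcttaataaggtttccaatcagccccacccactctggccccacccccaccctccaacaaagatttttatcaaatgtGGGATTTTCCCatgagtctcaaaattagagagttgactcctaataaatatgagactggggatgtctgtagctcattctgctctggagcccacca
Il12b (chr11:44399813-44400112, plus strand): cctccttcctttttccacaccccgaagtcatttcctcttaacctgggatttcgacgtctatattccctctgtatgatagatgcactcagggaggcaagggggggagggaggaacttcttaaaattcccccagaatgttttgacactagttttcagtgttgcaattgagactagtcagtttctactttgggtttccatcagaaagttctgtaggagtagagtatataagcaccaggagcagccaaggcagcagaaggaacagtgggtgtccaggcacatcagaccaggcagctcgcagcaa
Ebi3 (chr17:55952373-55952672, plus strand): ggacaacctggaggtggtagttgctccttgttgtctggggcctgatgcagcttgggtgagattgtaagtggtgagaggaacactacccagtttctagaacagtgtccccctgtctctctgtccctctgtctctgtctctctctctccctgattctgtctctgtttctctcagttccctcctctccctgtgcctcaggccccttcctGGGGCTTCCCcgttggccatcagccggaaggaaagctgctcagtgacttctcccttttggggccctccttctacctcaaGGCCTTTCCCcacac
In the Il6 window the capitals were, in order, an AP-1 match at -249 to -243, a C/EBP match at -128 to -121 and overlapping NF-kB matches on the opposite strands at -44 to -35 and -43 to -34, counted from the start site. In the Ebi3 window they were NF-kB matches at -44 to -35 and at 36 to 45, and the Il12b window held no match to the 4 motifs. Of 32851 RefSeq windows of 300 bases, 20.7% held the NF-kB motif, 2.94% the C/EBP motif, 7.81% the AP-1 motif and 3.44% the interferon response element. The Lif window held 1 NF-kB and 1 AP-1 match, and the 2 Il12a windows held 3 NF-kB matches. A match is a description of the letters and not a bound site. Il23a, Il27, Osm and Csf3 had no window in the table.

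Il6 (ENSMUSG00000025746, chromosome 5), the gene of interleukin-6, had counts in every library and rose after a first LPS in undepleted and in repopulated microglia. It was at 43.6, 33.9, 43.1 and 36.5 CPM in the PL libraries, against 18.3, 16.2, 15.9, 14.03 and 10.1 CPM in the PP libraries. In repopulated microglia it was at 67.2, 60.04, 63.9, 54.2 and 52.0 CPM in PBL, against 24.9, 20.4, 25.5, 18.5 and 22.7 CPM in PBP. Every PL library was above every PP library, and every PBL library was above every PBP library. The log2 fold change was 1.40 (SE 0.15, adjusted p = 1.84e-09) for PL over PP and 1.41 (SE 0.14, adjusted p = 2.59e-10) for PBL over PBP, by edgeR's quasi-likelihood test with Benjamini-Hochberg adjustment over all genes tested.

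After 2 LPS injections Il6 was lower than after 1. It was at 25.8, 25.1, 24.4, 25.3 and 29.7 CPM in LL, and at 32.5, 24.8, 33.7, 32.5 and 30.8 CPM in LBL. No LL library reached the lowest PL library, and no LBL library reached the lowest PBL library. The log2 fold change was -0.59 (SE 0.14, adjusted p = 0.0146) for LL over PL and -0.95 (SE 0.14, adjusted p = 9.83e-06) for LBL over PBL. The LL call was lost without PL replicate 1 (adjusted p = 0.0775) or PL replicate 3 (adjusted p = 0.0708). PL replicate 3 had the lowest RNA quality score (6.5, against 8.4 to 9.1 in the other PL libraries) and the lowest RNA concentration (0.59 ng per microlitre) of the 29 libraries. Il6 was nevertheless higher than in the saline groups, by 0.81 for LL over PP (SE 0.14, adjusted p = 3.38e-05) and by 0.46 for LBL over PBP (SE 0.14, adjusted p = 0.011). LL and PP differed in sorter throughout and LBL and PBP in all but PBP replicate 5. LPS at either injection and sorter therefore cannot be told apart for LL over PP. With the sorter in the fit both Il6 calls were lost (0.78, adjusted p = 0.107, for LL over PP, and 0.44, adjusted p = 0.321, for LBL over PBP).

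Il6 was also the member called between repopulated and undepleted microglia. It averaged 22.4 ± 2.95 CPM in PBP and 14.9 ± 3.10 CPM in PP (SD, n = 5 each), and the 2 groups did not overlap. PBP over PP was 0.58 on the log2 scale (SE 0.14, adjusted p = 0.0426). That call was lost without PBP replicate 5, the library of the other sorter (0.58, adjusted p = 0.0762), and in 8 of the 10 fits that left out 1 library, all but those without PBP replicate 4 or PP replicate 1, with an adjusted p of up to 0.111. After a first LPS it averaged 59.5 ± 6.39 CPM in PBL (n = 5) and 39.3 ± 4.82 CPM in PL (n = 4), again without overlap. PBL over PL was 0.60 on the log2 scale (SE 0.14, adjusted p = 0.0046). PBL and PL were sorted on different instruments throughout, and with the sorter in the fit this call was lost (0.57, adjusted p = 0.872). In PBL against PL, where 22.1% of tested genes were called, markers of several cell types moved. Of those tested, 6 of 6 neutrophil, 6 of 7 neuron, 6 of 8 astrocyte and 4 of 7 oligodendrocyte markers were called higher. Called lower were 6 of 7 border-associated macrophage and 6 of 10 microglia markers, and 1 each of the astrocyte and oligodendrocyte markers. Of 6 monocyte markers tested, 2 were called higher and 1 lower. Border-associated macrophage markers, 7 of 7 with counts in each group, summed to 18.0 to 35.9 CPM in PBL and 89.5 to 155 CPM in PL, and to 25.5 to 46.8 CPM in PBP and 53.9 to 117 CPM in PP. The part of these cell types in the Il6 differences was not tested. From lowest to highest mean the order was PP, PBP, LL, LBL, PL and PBL. In that order PBP overlapped with LL, and LL with LBL.

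**Figure D1:**
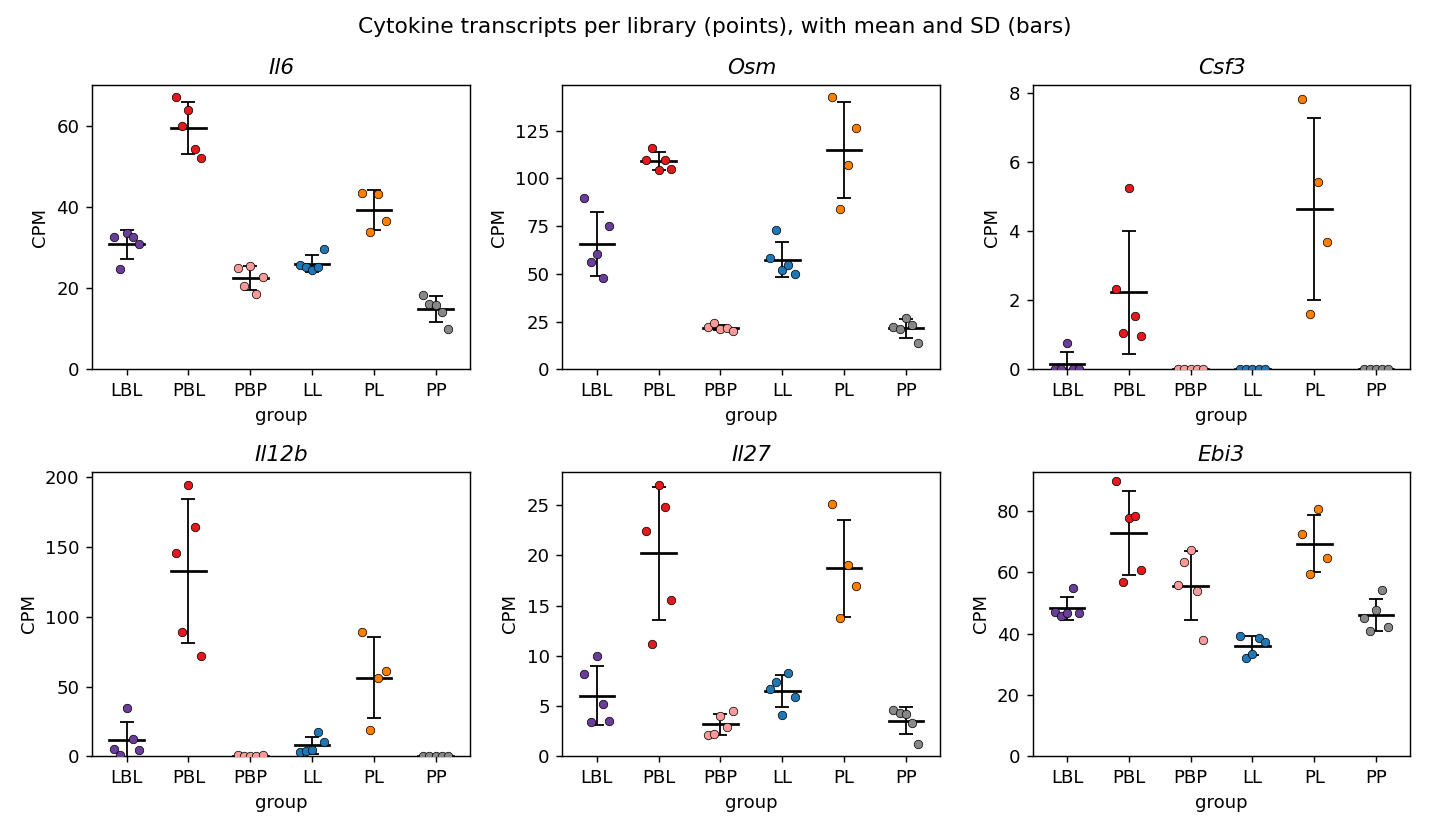
Level of the 6 cytokine genes that passed the filter, in CPM (vertical axis of each panel, linear) by group (horizontal axis); points are libraries and black bars the mean and SD. In each panel the PBL and PL libraries include the highest values, Csf3 is at 0 in PBP, LL and PP, and the LBL and LL means of Il6, Osm and Il12b lie between those of the groups given 1 LPS and the saline groups.

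Osm (ENSMUSG00000058755, chromosome 11) encodes oncostatin M, made mainly by myeloid and T cells. It was at 143, 83.8, 107 and 126 CPM in PL, against 22.2, 21.2, 26.8, 23.5 and 13.6 CPM in PP, and at 109, 116, 105, 109.9 and 105 CPM in PBL, against 22.5, 24.2, 21.2, 21.7 and 20.2 CPM in PBP. Neither pair of groups overlapped. Osm changed by a log2 fold of 2.42 (SE 0.17, adjusted p = 8.85e-14) for PL over PP and 2.31 (SE 0.16, adjusted p = 8.43e-14) for PBL over PBP. The SD over libraries was 4.67 CPM in PBL and 25.3 CPM in PL.

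With earlier LPS, Osm was at 58.3, 72.9, 51.9, 54.6 and 50.1 CPM in LL and at 89.8, 56.1, 60.5, 47.7 and 75.4 CPM in LBL. Every LL library was below every PL library and every LBL library below every PBL library. On the log2 scale the change was -0.996 (SE 0.16, adjusted p = 0.000119) for LL over PL and -0.73 (SE 0.15, adjusted p = 0.00221) for LBL over PBL. Of the members, Osm had the smallest p in both comparisons with saline, at 1.42 for LL over PP (SE 0.16, adjusted p = 1.24e-08) and 1.58 for LBL over PBP (SE 0.16, adjusted p = 1.16e-09). Osm was the member still called with the sorter in the fit, at 1.57 for LL over PP (adjusted p = 0.00308) and 1.70 for LBL over PBP (adjusted p = 0.000221). That fit called 7.1% and 9.67% of tested genes in these comparisons. Depletion made no called difference: the log2 fold change was 0.03 for PBP over PP (95% interval -0.30 to 0.37), -0.08 for PBL over PL (-0.40 to 0.25) and 0.19 for LBL over LL (-0.12 to 0.50). From lowest to highest mean the order was PP, PBP, LL, LBL, PBL and PL. PP overlapped with PBP, LL with LBL, and PBL with PL.

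Csf3 (ENSMUSG00000038067, chromosome 11), the gene of G-CSF, had 13, 6, 31, 10 and 7 counts in the PBL libraries (2.33, 1.07, 5.27, 1.55 and 0.956 CPM) and 63, 9, 46 and 28 counts in the PL libraries (7.84, 1.60, 5.44 and 3.71 CPM). It had no count in PBP, LL or PP, which allows up to 0.0713 CPM in PBP, 0.0700 CPM in LL and 0.0756 CPM in PP at 3 counts over the group, for counting error only. Csf3 thus appeared in each PL and PBL library, from mice given LPS at the last injection only. It was at least 61.5-fold higher in PL than in PP (adjusted p = 3.96e-05) and at least 31.4-fold higher in PBL than in PBP (adjusted p = 0.000124). The PBL call was lost once the sorter was a term of the fit (adjusted p = 0.107). With earlier LPS it was at least 66.4-fold lower in LL than in PL (adjusted p = 0.000377). In LBL it had 5 counts, all in replicate 3 (0.776 CPM), and its log2 fold change over PBL was -3.87 (SE 0.97, adjusted p = 0.0169). That call was lost without PBL replicate 3 or LBL replicate 2, at an adjusted p of up to 0.0613. Without LBL replicate 3 Csf3 had no count in LBL, so the size of the change rests on that library, while the call was kept (adjusted p = 0.00178). PBL and PL overlapped (log2 fold change -1.06, 95% interval -2.68 to 0.56).

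Lif (ENSMUSG00000034394, chromosome 11), the gene of leukaemia inhibitory factor, had 3 counts in all, in PBL replicate 4. It had no count in the other 28 libraries, so no level can be given for it at this depth.

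Il12b (ENSMUSG00000004296, chromosome 11), which encodes the subunit shared by IL-12 and IL-23, was close to silent without LPS. It was at 89.1, 18.9, 56.5 and 61.0 CPM in PL and had no count in PP. In repopulated microglia it was at 146, 88.8, 194, 164 and 71.6 CPM in PBL, against 6, 0, 1, 1 and 4 counts in the PBP libraries (0.299 ± 0.311 CPM). It was at least 745-fold higher in PL than in PP (adjusted p = 5.00e-06), and its log2 fold change for PBL over PBP was 8.78 (SE 1.02, adjusted p = 6.70e-07). The highest PL library held several times the level of the lowest, and PL and PBL overlapped (PBL over PL 1.23, 95% interval -0.11 to 2.58, adjusted p = 0.173).

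After earlier LPS, Il12b was at 2.92, 3.68, 4.70, 17.6 and 9.97 CPM in LL and at 5.05, 0.778, 34.4, 12.3 and 4.19 CPM in LBL. All LL libraries were below the lowest PL library, and all LBL libraries were below the lowest PBL library. Il12b changed by a log2 fold of -2.88 (SE 0.69, adjusted p = 0.0259) for LL over PL and -3.58 (SE 0.67, adjusted p = 0.00221) for LBL over PBL. The LL call was lost in 6 of the 9 fits that left out 1 library (PL replicates 1, 3 and 4 and LL replicates 1, 2 and 3), with an adjusted p of up to 0.0931, while the LBL call was kept in all 10. Il12b was still above saline, at least 103-fold in LL over PP (adjusted p = 0.00131) and by a log2 fold change of 5.20 in LBL over PBP (SE 1.11, adjusted p = 0.00138). Adding the sorter to the model lost both calls (adjusted p = 0.426 for LL over PP and 0.282 for LBL over PBP). From lowest to highest mean the order was PP, PBP, LL, LBL, PL and PBL, and each neighbour overlapped with the next except PBP with LL.

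The partner subunits of Il12b were close to the counting limit. Il12a (ENSMUSG00000027776, chromosome 3) had 1 count in LBL, 5 in PBL, 0 in PBP, 3 in LL, 5 in PL and 0 in PP. Il23a (ENSMUSG00000025383, chromosome 10) had 0 counts in LBL, 8 in PBL, 6 in PBP, 2 in LL, 8 in PL and 0 in PP. No group had counts of either gene in all of its libraries. With no filter on low counts (32238 genes), the genes called came to 12.1% for PL over PP, 21.6% for PBL over PBP, 1.29% for LL over PL, 2.88% for LBL over PBL and 9.17% for PBL over PL. Neither gene was called in these or in the other comparisons, and the smallest adjusted p was 0.0696 for Il12a (PBL over PBP) and 0.0768 for Il23a (PL over PP).

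Il27 (ENSMUSG00000044701, chromosome 7) encodes the subunit particular to IL-27. It was at 25.1, 13.7, 19.1 and 16.9 CPM in PL, against 4.58, 4.32, 4.18, 3.36 and 1.26 CPM in PP, and at 22.4, 11.2, 27.0, 24.8 and 15.6 CPM in PBL, against 2.16, 2.19, 4.03, 2.95 and 4.50 CPM in PBP. Both LPS groups stood clear of their saline groups. Il27 changed by a log2 fold of 2.40 (SE 0.33, adjusted p = 5.95e-07) for PL over PP and 2.68 (SE 0.33, adjusted p = 3.25e-08) for PBL over PBP. With earlier LPS it was at 6.72, 7.35, 4.09, 8.30 and 5.91 CPM in LL and at 8.20, 3.40, 9.93, 5.17 and 3.47 CPM in LBL. Neither group overlapped with its counterpart given 1 LPS, and the log2 fold change was -1.53 (SE 0.32, adjusted p = 0.00339) for LL over PL and -1.76 (SE 0.31, adjusted p = 0.000253) for LBL over PBL. Against saline it was 0.87 for LL over PP (SE 0.32, adjusted p = 0.0361) and 0.93 for LBL over PBP (SE 0.33, adjusted p = 0.0331), and each of these calls was lost in 5 of 10 fits that left out 1 library. For LL over PP these left out LL replicate 1, 2 or 4 or PP replicate 4 or 5 (adjusted p up to 0.1104), and for LBL over PBP they left out LBL replicate 1 or 3 or PBP replicate 1, 2 or 4 (up to 0.143). With the sorter in the fit neither was called (0.20, adjusted p = 0.915, for LL over PP, and 0.40, adjusted p = 0.771, for LBL over PBP). The order of means was PBP, PP, LBL, LL, PL and PBL, low to high, and of the neighbours in it LL and PL alone did not overlap.

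Ebi3 (ENSMUSG00000003206, chromosome 17), the partner of Il27, had the highest level of the 9 genes in saline microglia when set per kilobase of exon, and of the members tested had the smallest fold change after a first LPS. It was at 72.4, 59.5, 80.7 and 64.6 CPM in PL, against 45.1, 41.0, 47.8, 54.3 and 42.2 CPM in PP, without overlap. It was at 89.9, 56.8, 77.9, 78.2 and 60.7 CPM in PBL, against 56.0, 63.3, 67.3, 54.0 and 37.9 CPM in PBP, with overlap. The log2 fold change was 0.59 (SE 0.14, adjusted p = 0.00162) for PL over PP and 0.38 (SE 0.13, adjusted p = 0.0201) for PBL over PBP. The PBL call was lost without PBP replicate 5 (0.28, adjusted p = 0.0668), which had the lowest value of PBP, and without PBL replicate 1 (adjusted p = 0.0778). With a sorter term it was larger, at 0.94 (adjusted p = 0.00312).

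After earlier LPS, Ebi3 was at 39.3, 32.2, 33.4, 38.5 and 37.2 CPM in LL and at 47.2, 45.9, 46.7, 55.0 and 46.7 CPM in LBL. Ebi3 changed by a log2 fold of -0.94 (SE 0.14, adjusted p = 4.72e-05) for LL over PL and -0.59 (SE 0.13, adjusted p = 0.00501) for LBL over PBL. All LL libraries lay below all PP libraries as well, and Ebi3 was called lower in LL than in PP (-0.35, SE 0.14, adjusted p = 0.0426), a call lost without LL replicate 2, 3 or 5 or PP replicate 1, 3 or 4 (adjusted p up to 0.130). It was also lost with no filter (adjusted p = 0.0551) and with relative log expression factors (0.0504), and with the sorter in the fit the direction turned (0.31, adjusted p = 0.538). The LBL libraries all lay above the LL libraries, but the difference of 0.42 (95% interval 0.15 to 0.70) was not called by edgeR (adjusted p = 0.126), whereas DESeq2 gave 0.44 (adjusted p = 0.0369). Means ran in the order LL, PP, LBL, PBP, PL and PBL, low to high, with overlap between all neighbours except LL and PP.

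Some reads of Il27 and Ebi3 are uncertain in origin. In the GENCODE annotation of the GRCm38 build, Il27 overlaps Apobr, the gene of an apolipoprotein B receptor on the opposite strand, and Ebi3 overlaps the antisense gene Gm16712. The strand setting of the counting is not given in the sources used here, so reads of overlapping genes cannot be told apart.

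Levels of different genes can be compared only per length. Per kilobase of exon, Il12b was at 67.6 ± 26.2 CPM per kilobase in PBL and 28.7 ± 14.7 in PL, against 0.0997 and 0.107 for Il12a and 0.122 and 0.107 for Il23a (means of PBL and PL, per kilobase). The level of the shared subunit gene was therefore far above that of either partner in the groups given 1 LPS. Ebi3 was at 63.0 ± 11.9 CPM per kilobase in PBL and 60.1 ± 8.04 in PL, against 19.8 ± 6.49 and 18.3 ± 4.71 for Il27. In saline microglia Ebi3 was at 48.3 ± 9.80 CPM per kilobase in PBP and 39.9 ± 4.60 in PP, and Il27 at 3.10 ± 1.05 in PBP and 3.47 ± 1.33 in PP.

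**Figure D2:**
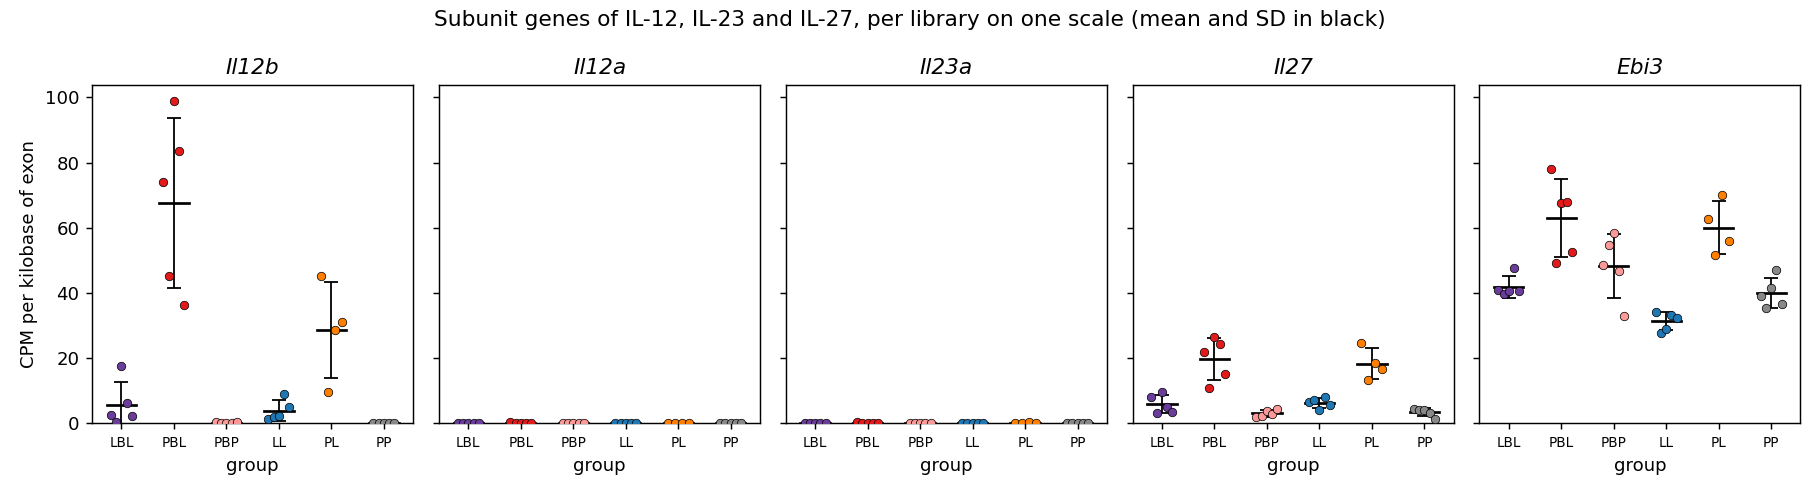
Subunit genes of IL-12, IL-23 and IL-27 on one linear scale, in CPM per kilobase of exon (vertical axis) by group (horizontal axis); points are libraries and black bars the mean and SD. Il12b reached 67.6 CPM per kilobase on average in PBL while Il12a and Il23a stayed at or near 0 in all libraries, and Ebi3 was present in all groups.

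Counted together, the 6 genes that passed the filter were called higher in PL than in PP, where 14.2% of all tested genes were called higher, and none overlapped (11.5% of tested genes were higher without overlap). They were called higher in PBL than in PBP as well (21.5% of tested genes), 5 of them without overlap (12.5%). With earlier LPS, all 6 of these were called lower in LL than in PL, where 2.03% of tested genes were called lower, and none overlapped (2.84%). In either direction 2.78% of tested genes were called there. The same count was reached for LBL against PBL, where 4% of tested genes were called lower, again with no overlap (4.44%), 2.74% were called higher and 6.74% either way. Comparisons with saline share the control libraries of the first LPS response: LL over PP gave 4 members higher (18.9% of tested genes) and 1 lower (13.2%) of the 5 with a value, 3 higher (12.5%) and 1 lower (9.83%) of them without overlap. LBL over PBP gave 4 higher (14.6%) of 6, of which Osm and Il12b were without overlap (8.57%). Without PBP replicate 5, Ebi3 was called lower in LBL than in PBP too (-0.32, adjusted p = 0.0486).

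All PL libraries were sorted on one instrument and all LL libraries on the other, so sorter and earlier LPS cannot be told apart in that comparison. PBL was sorted on the XDP and PBP on the Astrios except replicate 5, so LPS and sorter nearly coincide in PBL over PBP too. The sorter in the fit, a term that only PBP replicate 5 informs, lowered the share of genes called there from 43.1% to 13.4%. Csf3 lost its call in that fit. With the same term none of the 6 was called for LL over PL, where 0.0661% of tested genes were called. The values were then -0.62 for Il6, -0.85 for Osm, -4.29 for Il12b, -2.20 for Il27 and -0.28 for Ebi3, with adjusted p from 0.147 to 1.00. The LBL and PBL libraries all came from the XDP, so a fit to XDP libraries alone compares the same LBL and PBL libraries. In that fit all 6 were called lower in LBL, where 7.27% of 17933 tested genes were called either way. The log2 fold changes were -0.94 for Il6, -0.72 for Osm, -3.58 for Il12b, -1.75 for Il27, -0.58 for Ebi3 and -3.84 for Csf3. All PBL libraries were sorted on day 3 and the LBL libraries on day 1 or 2. Earlier LPS and sorting day therefore cannot be told apart for LBL over PBL. Within sorting day 5, shared by PL replicates 3 and 4 and all of PP, the 6 were called higher in PL, for example Il6 at 1.43 and Osm at 2.46. In that fit 26.1% of 14858 tested genes were called either way. PL replicate 3 had the lowest RNA quality score of all libraries (6.5).

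**Figure D3:**
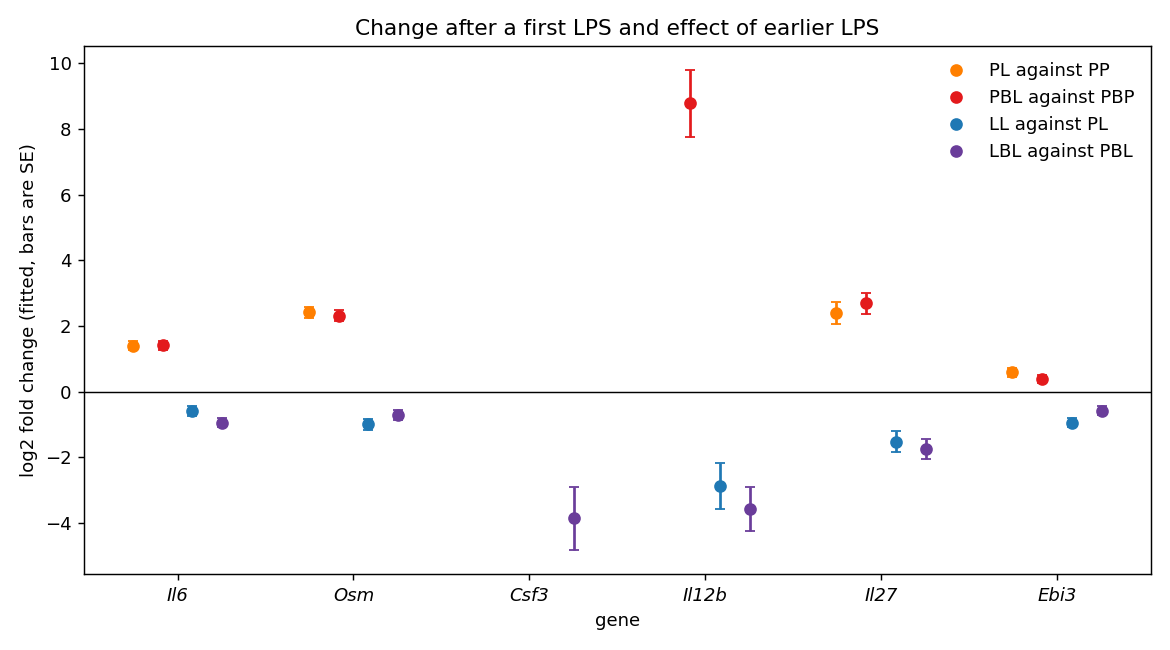
Fitted log2 fold change (vertical axis) of each gene (horizontal axis) for PL against PP, PBL against PBP, LL against PL and LBL against PBL; bars are standard errors. Comparisons in which a group had no count are left out (Csf3 in 3 of them, Il12b for PL against PP). The values shown for a first LPS are above 0 and those for earlier LPS are below 0.

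Whether the response differed after depletion was tested as a difference of log2 fold changes. In the first difference below, PBL was sorted on the XDP, PL and PP on the Astrios, and PBP on the Astrios except replicate 5. In the second, PL alone was on the Astrios, so depletion and sorter are hard to tell apart in both. With the sorter in the fit the direction turned for Il6, Osm, Il27 and Ebi3 in the first and for Il12b, Il27 and Ebi3 in the second. For a first LPS (PBL minus PBP against PL minus PP) the difference in log2 fold change was 0.01 for Il6 (95% interval -0.41 to 0.43), -0.11 for Osm (-0.58 to 0.35), 0.28 for Il27 (-0.65 to 1.21) and -0.21 for Ebi3 (-0.60 to 0.19). None of the 4 was called by edgeR (adjusted p 0.679 to 0.990, 0 at an unadjusted p under 0.05), where 0% of all tested genes were called, nor by limma voom. DESeq2 gave an adjusted p for Il6, Osm and Ebi3, none of them called, and none for Il27. For the effect of earlier LPS (LBL minus PBL against LL minus PL) the differences were -0.36 for Il6 (-0.76 to 0.04), 0.27 for Osm (-0.18 to 0.72), -0.70 for Il12b (-2.66 to 1.25), -0.23 for Il27 (-1.13 to 0.67) and 0.36 for Ebi3 (-0.04 to 0.75). Here too 0 of 5 were called by edgeR, DESeq2 or limma voom (edgeR adjusted p 0.397 to 0.846, 0 at an unadjusted p under 0.05), with 0.0241% of tested genes called. The intervals leave room for differences of some size, most of all for Il12b. Between LBL and LL none of the 6 was called by edgeR (1.21% of tested genes, 0.487% higher). Of the 6, 1 was higher without overlap (1.32%) and 2 had an unadjusted p under 0.05. DESeq2 called 1, Ebi3 (2.59% of tested genes either way).

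Of the direct comparisons without earlier LPS, PBP over PP gave 1 call among 5 members with a value, Il6 (0.289% of tested genes were called higher and 0.529% either way, and 1.14% were higher without overlap). PBL over PL gave 1 among 6, again Il6 (11% called higher, 10.1% higher without overlap). For the other members PBP over PP was -0.17 for Il27 (95% interval -0.86 to 0.51) and 0.27 for Ebi3 (0.00 to 0.55). PBL over PL was 0.11 for Il27 (-0.53 to 0.74) and 0.07 for Ebi3 (-0.22 to 0.35). These intervals do not show that repopulated and undepleted microglia were alike.

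Markers of microglia and of other cell types moved with the groups. Of 10 neutrophil markers, 9 had counts in PBL (all but Mpo), and their sum was 122 to 469 CPM per PBL library, against 0 to 6.52 CPM in PBP, where Mmp8, Ly6g, Elane and Mpo were at 0. The sum was 0.194 to 3.79 CPM in LBL, with Camp, Ly6g, Elane and Mpo at 0. The 6 neutrophil markers tested were called higher in PBL than in PBP and lower in LBL than in PBL. This is the direction of the cytokine genes, and the part of these markers in those results was not tested. Of all tested genes 21.5% were called higher and 21.5% lower in PBL against PBP, and 4% lower in LBL against PBL. In undepleted mice the sum was 0 to 31.3 CPM in LL, 0.249 to 18.2 CPM in PL and 0 to 7.85 CPM in PP. None of the 6 was called in PL against PP (26.2% of tested genes) or LL against PL (2.78%). The part of neutrophil markers in those comparisons was not tested. Dendritic cell markers, 7 of 7 with counts in PBL and PL, summed to 28.2 to 59.4 CPM in PBL against 10.5 to 22.1 in PBP, and to 18.9 to 37.9 CPM in PL against 11.9 to 21.2 in PP, with Ccr7 at 0 in PBP and PP; their part was not tested. Sums of the dendritic cell list were 13.2 to 27.0 CPM in LBL and 11.3 to 17.6 CPM in LL. Of 6 monocyte markers tested, 3 were called higher and 1 lower in PBL than in PBP, and 3 were called lower in LBL than in PBL. The monocyte list summed to 7.41 to 15.3 CPM in LBL, 29.7 to 85.4 CPM in PBL and 23.0 to 33.8 CPM in PBP. Neuron markers summed to 91.2 to 187 CPM in PBL and 20.8 to 139 CPM in PBP, and to 42.5 to 181 CPM in LL and 20.9 to 42.5 CPM in PL. The part of either list was not tested.

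Astrocyte markers, 8 of 8 with counts in each group, summed to 707 to 930 CPM in PBL and 386 to 476 CPM in PBP, and to 760 to 1029 CPM in PL and 441 to 592 CPM in PP, without overlap in either pair. Of the 8, 7 were called higher in PBL than in PBP (21.5% of tested genes) and 1 in PL than in PP (14.2%). Microglia markers were called lower for 9 of 10 in PBL than in PBP (21.5% of tested genes) and for 7 of 10 in PL than in PP (11.9%). Their sums were 33981 to 48424 CPM in PBL, 50357 to 69531 CPM in PBP, 47280 to 54770 CPM in PL and 61411 to 73362 CPM in PP. None of the 8 astrocyte or 10 microglia markers was called in LBL against PBL (6.74% of tested genes). In LL against PL, 2 of 8 astrocyte and 2 of 7 neuron markers were called higher (0.752% of tested genes). None of the 10 microglia markers was called there. The RNA quality score averaged 7.64 in PBL and 8.6 in PBP, 8.22 in PL and 8.86 in PP, and 8.36 in LBL and 7.64 in PBL. The part of these measures in the cytokine results was not tested.

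Among the receptors of these cytokines, Il6st fell and Il27ra rose after a first LPS. Of 9 receptor genes 6 were tested, and 2 rose and 1 fell in PL against PP (median log2 fold change 0.14, against -0.00087 over all tested genes). Of all tested genes 14.2% were called higher and 11.9% lower there. In PBL against PBP 2 receptor genes rose and 1 fell, where 21.5% of tested genes were called higher and 21.5% lower. Il6st, the shared signalling chain, fell to 187 ± 13.7 CPM in PL, against 293 ± 34.9 CPM in PP (-0.64, SE 0.13, adjusted p = 0.000216), and to 185 CPM in PBL, against 279 CPM in PBP (-0.60, SE 0.12, adjusted p = 0.000157). Il27ra, the receptor chain of IL-27, rose at a low level, to 1.34 ± 0.825 CPM in PL, against 0.327 ± 0.405 in PP (1.97, SE 0.75, adjusted p = 0.0477), and by 1.91 in PBL over PBP (SE 0.69, adjusted p = 0.0244). Lifr, the receptor chain of leukaemia inhibitory factor, rose in PL over PP (0.47, SE 0.17, adjusted p = 0.035), and Il12rb2, a chain of the IL-12 receptor, rose in PBL over PBP (0.81, SE 0.33, adjusted p = 0.0427). Osmr, the partner chain for oncostatin M, did not pass the filter. It had 32 counts in PBL and 33 in PL, and 0 in PBP and in PP.

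With earlier LPS no receptor gene was called in LL against PL (0 of 6, 1 at an unadjusted p under 0.05), where 2.78% of tested genes were called. In LBL against PBL Lifr rose, to 427 ± 51.0 CPM in LBL, against 218 ± 24.6 CPM in PBL (0.97, SE 0.16, adjusted p = 0.000116), and Il6ra, the receptor chain particular to interleukin-6, fell (-0.43, SE 0.13, adjusted p = 0.0366). Between PBL and PL, Il6ra was higher in PBL (0.47, SE 0.14, adjusted p = 0.0153) and Lifr lower (-0.61, SE 0.17, adjusted p = 0.0109); these groups differed in sorter throughout, so depletion and sorter cannot be told apart there. Csf3r was at 202 to 295 CPM on average in the 6 groups and was called in 1 of the comparisons between groups, lower in LL than in PP (-0.45, SE 0.11, adjusted p = 0.00282). Il12rb1 and Il23r were not tested.

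Of 10 tested genes that carry or answer the JAK-STAT signal, 7 rose and 1 fell in PL against PP (median 2.63) and 8 rose in PBL against PBP (median 2.66). The shares of all tested genes called were 14.2% higher and 11.9% lower in PL against PP, and 21.5% higher in PBL against PBP. Socs3, the feedback inhibitor that binds the shared receptor chain, was at 1173 CPM in PL against 12.9 in PP (6.50, SE 0.22, adjusted p = 9.00e-21). Cish, another SOCS family inhibitor (6.91, SE 0.35), Bcl3, an atypical IkB protein (6.70, SE 0.25), and the kinase gene Pim1 (5.44, SE 0.24) rose too, while the kinase gene Tyk2 fell (-0.67, SE 0.17, adjusted p = 0.0027). With earlier LPS, 3 fell in LL against PL (2.03% of tested genes were called lower): Cish (-1.17), Pim1 (-0.73) and Socs3 (-0.64). In LBL against PBL 4 fell (4% of tested genes were called lower): Socs1 (-2.32), Pim1 (-1.31), Cish (-1.08) and Bcl3 (-0.81). Stat3 itself rose with a first LPS (2.23, SE 0.09, for PL over PP) and was not called in either comparison of earlier LPS. Many of these genes also answer LPS without these cytokines.

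Of 12 transcription factors known to act on Il6 or Il12b, 9 rose and 2 fell in PL against PP and likewise in PBL against PBP. Over all tested genes, 14.2% rose and 11.9% fell in PL against PP, and 21.5% rose and 21.5% fell in PBL against PBP. For PL over PP the rises were led by Cebpb (4.22, SE 0.28), the AP-1 family member Batf (3.10, SE 0.13), the nuclear IkB protein gene Nfkbiz, needed for Il6 induction in macrophages (3.09, SE 0.39), and Cebpd (2.43, SE 0.37). Irf8 (-0.88, SE 0.12) and Irf5 (-0.36, SE 0.13), both linked to Il12b induction in myeloid cells, fell. With earlier LPS, 4 fell in LL against PL: Irf1 (-1.58), Rel (-1.02), Nfkb1 (-0.52) and Batf (-0.52). In LBL against PBL 7 fell, led by Nfkbiz (-1.78), Irf1 (-1.47), Cebpd (-1.24) and Cebpb (-0.96). The median was -0.47 in LL over PL and -0.74 in LBL over PBL, against 0.012 and 0.013 over all tested genes. Called lower were 2.03% of all tested genes in LL against PL and 4% in LBL against PBL.

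Of 9 RNA-binding proteins known to act on the stability of cytokine mRNA, 5 rose and 1 fell in PL against PP, and 6 rose and 1 fell in PBL against PBP. Among all tested genes, 14.2% rose and 11.9% fell in PL against PP, and 21.5% rose and 21.5% fell in PBL against PBP. Arid5a, which stabilises Il6 mRNA, was at 443 CPM in PL against 17.4 in PP (4.67, SE 0.15). The destabilisers Zfp36 (3.34, SE 0.36), Zc3h12a, the nuclease also called Regnase-1 (2.20, SE 0.24), and Zfp36l1 (1.68, SE 0.12) rose as well, and Zfp36l2 fell (-1.22, SE 0.18). With earlier LPS Zc3h12a fell in LL against PL (-0.98, SE 0.23, adjusted p = 0.0105) and in LBL against PBL (-1.71, SE 0.22, adjusted p = 1.80e-06). Arid5a fell in LL against PL (-0.54, SE 0.13, adjusted p = 0.0127), and Zfp36l2 rose in LBL against PBL (0.68, SE 0.17, adjusted p = 0.0124).

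**Figure D4:**
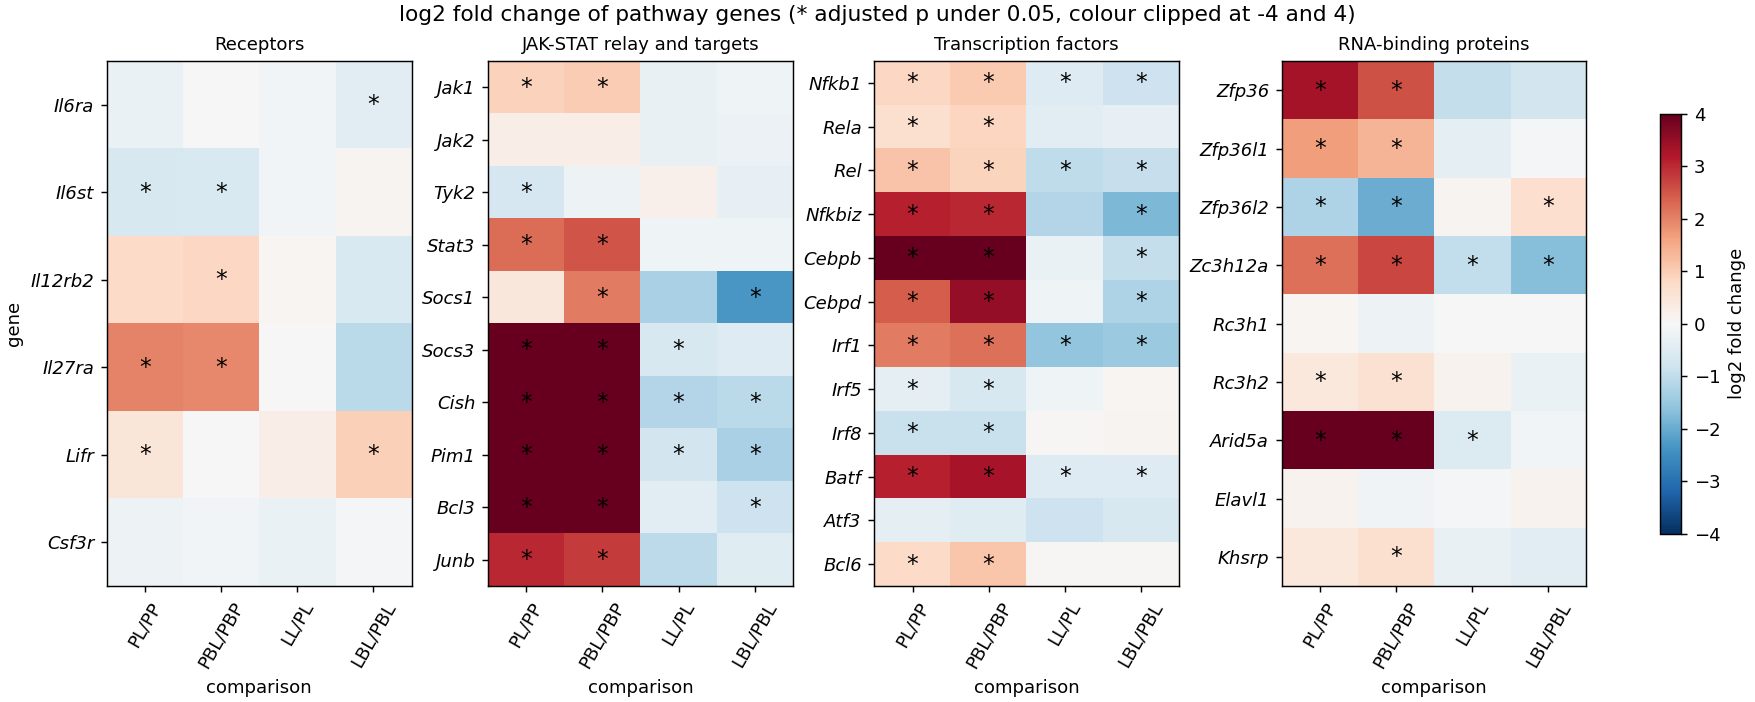
Log2 fold change (colour, clipped at -4 and 4) of the tested genes of 4 lists (rows) in PL against PP, PBL against PBP, LL against PL and LBL against PBL (columns); a star marks an adjusted p under 0.05. Most starred cells of the first 2 columns are rises, and the last 2 columns hold mostly falls or values without a star.

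Between depleted and undepleted mice no gene of these lists was called in PBP against PP or in LBL against LL, where 0.529% and 1.21% of all tested genes were called, nor in either test of whether depletion altered a response. In PBL against PL, where 22.1% of tested genes were called and the sorter differed throughout, calls were 2 of 6 receptor genes, 3 of 10 JAK-STAT genes, 3 of 12 transcription factors, 3 of 9 RNA-binding proteins and Clcf1. The 5 other ligands of the IL-6 family listed gave 1 tested gene, Clcf1, whose product acts through the receptor of ciliary neurotrophic factor. It went against the members in PBL over PBP and in LBL over PBL. Clcf1 was at 6.52 ± 2.05 CPM in PBL against 23.7 ± 5.12 CPM in PBP (-1.85, SE 0.28, adjusted p = 1.94e-06). It was at 12.7 ± 5.06 CPM in LBL against 6.52 CPM in PBL (0.95, SE 0.28, adjusted p = 0.0352). In PL over PP it was at -0.70 (adjusted p = 0.0685), which was not called. In undepleted mice Clcf1 was called lower in LL than in PP (-1.31, adjusted p = 0.00035), groups that differed in sorter throughout. The difference of its first LPS responses after depletion was not called (-1.15, adjusted p = 0.238). Ctf2 had 34 counts in PL and 13 in PP and did not pass the filter, and Il11, Cntf and Ctf1 had at most 13 counts in any group.

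The genes most like each member across the 29 libraries, by Pearson correlation of log2 CPM, were named as a description only, since the libraries share their groups, library preparation and depth. Il6 was closest to Phlda1 (0.951), Gm14023 (0.943) and Ifi30 (0.937), and Osm to Rab20 (0.971), Icam1 (0.970) and Id2 (0.968). Il12b was closest to Ccl5 (0.967), Cd69 (0.966) and Rnd1 (0.963). Il27 and Csf3 had Sod2 in common at the head of their lists (0.923 and 0.936), followed by Tnfaip2 (0.919) and Sdc4 (0.918) for Il27 and by Cxcl1 (0.922) and Nfkbib (0.916) for Csf3. Ebi3 was closest to its antisense gene Gm16712 (0.917), with Herpud1 (0.886) and Adora3 (0.861) next. With a prior count of 0.5 in place of 2 all 3 genes named for Il12b were others (Birc3, Il1rn and Casp4).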

How the data were processed

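RNA sequencing of sorted microglia gave 29 libraries in 6 groups. The authors deposited raw read counts per gene with no normalization. Tools and builds named in the submitters' processing notes, without roles, were TopHat, HTSeq 0.11.0, SAMtools 1.10, cutadapt 2.10, Picard 2.13.2, FastQC 0.11.9 and the mouse build GRCm39. Annotation release and strand setting: not given in the sources used here. The authors' deposited sample table gives an RNA quality score, the RNA concentration and the sorting day.

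Testing used edgeR 4.0.16 (R 4.3.3; limma 3.58.1 and DESeq2 1.42.0 as alternatives). The function filterByExpr at its defaults left 16632 of 36982 genes. After TMM scaling, a robust quasi-likelihood fit took in all 29 libraries, with a mean for each group (23 residual degrees of freedom, common biological coefficient of variation 0.26). P-values are two-sided and Benjamini-Hochberg adjusted over all genes of a comparison, and an adjusted p under 0.05 was called. Each SE is the absolute log2 fold change divided by the square root of the quasi-likelihood F statistic. The 95% intervals were built from that SE, so both are approximate, most of all where a group had few counts. Sorter and sorting day, which nearly follow the groups, were left to alternatives. The percentages printed beside counts of members are the share of tested genes called or without overlap in that comparison. CPM values use TMM-scaled totals and are given as mean ± SD over libraries. Folds against a group with no count are bounds at 3 counts over the group. Exon lengths and overlapping genes came from GENCODE vM21 (GRCm38), matched by Ensembl identifier, and promoter windows from RefSeq (GRCm38.p6).

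All 9 members are described; other genes were named from lists of receptors, ligands, JAK-STAT genes, transcription factors and RNA-binding proteins, up to 4 called genes of the largest change per list and comparison, plus those needed to account for small counts. Some genes of these lists are not reported here and are left out of the lists' counts and medians. Members, lists and markers were chosen with earlier results of these data known. The 3 genes of most similar pattern used a prior count of 2. The 56 pairs of libraries within groups differed by a chi-square of 5.47 to 32.5 per degree of freedom, so none was counted as a duplicate. The fitting code was tested on simulated data.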

Additional observations from a re-analysis of the deposited data

Results flagged for a closer look

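Of 32 sets of 4 or 5 libraries examined for a value standing apart, 3 had one; chance alone gives about 1 in 20. Il6 was at 29.7 CPM in LL replicate 5, against 24.4 to 25.8 CPM in the other LL libraries, a gap of 0.729 of the whole range. That library was sorted on day 1, the other LL libraries on day 2. Ebi3 was at 55.0 CPM in LBL replicate 4, against 45.9 to 47.2 CPM in the other LBL libraries (0.859 of the range). Csf3 was at 0.776 CPM (5 counts) in LBL replicate 3 and at 0 in the other LBL libraries (1 of the range). With all other libraries at 0 the gap always equals the range, so the flag was fixed in advance and the rate of chance does not apply to it. LBL replicate 3 had the highest Il12b (34.4 CPM) and Il27 (9.93 CPM) of LBL.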

How the results depend on the processing

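Every member kept its direction and its side of the threshold with the replicate number as a block (61 of 61 values). That fit called 6 members in LL against PL (2.37% of tested genes) and in LBL against PBL (7.46%). The numbers come from titles only, 42 same-numbered pairs of libraries had correlations of -0.31 to 0.29, and the block was not used. Relative log expression factors kept 60 of 61 values, no filter 59, limma voom 54, DESeq2 57 of 58 and the sorter in the fit 34 of 61. For LL against PL the sorter reduced 6 called members to 0 (0.0661% of tested genes called in that fit). It reduced 1 to 0 for PBP against PP (0.397%) and for PBL against PL (0.018%). For LL against PP it reduced 5 to 1 (7.1%) and for LBL against PBP 4 to 1 (9.67%). PBP against PP also gave 0 with no filter (0.251% of tested genes) and with limma voom (0.457%). Limma voom gave 3 for PBL against PL (22.7%) and 2 for LBL against PBP (33.6%). XDP libraries alone gave 1 for LBL against PBP (8.21%). DESeq2 gave 1 for LBL against LL (2.59%), where edgeR gave 0 (1.21%). The sorter turned the direction for PBL against PL in Il12b (-0.18), Il27 (-0.57) and Osm (0.0707), for Ebi3 in LL against PP (0.31) and LBL against PBP (0.35), for the first difference of responses in Il6 (-0.00847), Il27 (-0.24), Ebi3 (0.35) and Osm (0.00928), and for the second in Il12b (0.70), Il27 (0.44) and Ebi3 (-0.31). Other turns were Il12b in LBL against LL with limma voom (-0.21) or with sorting day in the fit (-0.13), Il6 in the first difference with limma voom (-0.0104) and Ebi3 in LBL against PBP among XDP libraries (0.34). None of these turned values was called, and the cause was not tested. Leaving out 1 library gave 6 called members in PL against PP each time, 5 to 6 in PBL against PBP, 4 to 6 in LL against PL, 5 to 6 in LBL against PBL, 0 to 1 in PBP against PP, 3 to 5 in LL against PP and 3 to 5 in LBL against PBP. It turned small values: Osm in PBP against PP (-0.0923 to 0.13) and PBL against PL (-0.20 to 0.0601), Il27 (-0.0163 to 0.30) and Ebi3 (-0.0202 to 0.18) in PBL against PL, Il12b (-0.47 to 1.05) and Il27 (-0.37 to 0.0182) in LBL against LL, and Il6 (-0.074 to 0.12) and Osm (-0.24 to 0.0144) in the first difference. Over all genes the sorter changed the calls from 7163 to 2224 in PBL against PBP, from 463 to 11 in LL against PL, from 3673 to 3 in PBL against PL, from 5340 to 1181 in LL against PP, from 4684 to 1609 in LBL against PBP and from 201 to 330 in LBL against LL, where no filter gave 126. XDP libraries alone gave 2083 in PBL against PBP and 1473 in LBL against PBP. DESeq2 called 717 genes in LL against PL, 276 in PBP against PP (edgeR 88) and 430 in LBL against LL. The first difference of responses had 0 genes called by edgeR, 11 with no filter, 1 with relative log expression factors, 2 with the block, 63 with DESeq2 and 0 to 740 without 1 library; the second had 4, 0, 0, 1, 31 and 0 to 23. At these depths Il12a, Il23a and Lif could not be compared.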
